A study of Mus musculus with 24 samples.

Results

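The response to Dexa under KL001 in siCTRL cells was read from 6 of the 24 messenger RNA libraries of a series on mouse embryonic fibroblasts. Of these, 3 libraries came from cells given siCTRL and KL001, and 3 from cells given siCTRL, KL001 and Dexa. The labels alone decided which libraries belonged, and every gene in the count table was considered. All cells were wild type. The arm without Dexa is therefore no untreated control, since both arms carried siCTRL and KL001. Where a yardstick was needed, the response in the vehicle (siCTRL, DMSO, with Dexa against without, 3 libraries each) and the response under KL001 after knockdown (siCop1, KL001, with Dexa against without, 3 libraries each) were set beside it. Here siCTRL is read as a control small interfering RNA and siCop1 as one against Cop1, which selects substrates for a cullin-based ubiquitin ligase. No label states a dose, an exposure time, an siRNA sequence or the strain, and none says whether replicates came from separate cultures, so p-values measure only the spread between libraries, which may be technical.

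Glucocorticoids act through the glucocorticoid receptor, a hormone-activated transcription factor encoded by Nr3c1 that Hsp90 chaperones hold ready in the cytoplasm. Bound to hormone, it enters the nucleus, raises transcription at glucocorticoid response elements and lowers the output of AP-1 and NF-kB at inflammatory and protease genes. Dexamethasone is a synthetic agonist of this receptor, and in cultured fibroblasts it also resets the circadian clock through Per1. The labels write "Dexa" and do not spell it out. KL001 is a small molecule that binds cryptochromes, the repressor proteins of the clock encoded by Cry1 and Cry2, and slows their breakdown. Cryptochromes are also known to bind the glucocorticoid receptor and to restrain its activity. The comparison asks what Dexa does to expression in the presence of KL001, and whether that differs from the vehicle. Only RNA was measured, so whether cryptochromes were stabilised in these cells was not tested.

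The 6 libraries held 23056672 to 26307891 counts, within the range of the series (21409988 to 27875023). Levels are given as CPM, read counts scaled to library sizes adjusted by the trimmed mean of M-values. They are not corrected for gene length, so they are compared between libraries and not between genes. Fibroblast markers were abundant in every library: Col1a1, a chain of type I collagen, lay between 18594 and 21403 CPM and Vim, an intermediate filament of mesenchymal cells, between 4448 and 4794 CPM. Of the 12 fibroblast markers, 5 fell with Dexa and 1 rose (50% against 26.8% over all genes). Their changes ran from -1.70 for Lum to 1.04 for Pdgfra. Lum and Dcn, small proteoglycans of mature fibroblasts, were low, at 1.09 and 3.70 CPM in KL001 without Dexa. The summed level of 12 heart muscle markers was 15.3, 119.9 and 16.6 CPM in the libraries of KL001 without Dexa and 15.6, 42.0 and 14.0 CPM in those with Dexa. Replicate 2 thus stood above the others in both arms, and none of the 11 heart markers tested passed the threshold (against 26.8% over all genes). The 10 macrophage and leukocyte markers in the table summed to 4.69 to 10.2 CPM and the 8 endothelial markers to 1.64 to 3.45 CPM per library, with up to 4 and up to 3 of these markers at 0. Replicates of KL001 without Dexa differed from each other by more than those with Dexa, with a chi-square per degree of freedom of 4.198 to 9.262 against 2.017 to 2.429, and the largest values involved replicate 2.

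Dexa altered a broad set of transcripts under KL001. Of 14772 genes tested, 1881 were higher (12.7%) and 2071 lower (14%) at an adjusted p below 0.05 (quasi-likelihood test of edgeR, p-values adjusted by Benjamini and Hochberg over all genes tested), so 26.8% passed. All adjusted p-values below come from this model unless another tool is named. Changes of at least 2-fold were fewer and mostly upward: 339 genes were at least 2-fold higher (2.29%) and 121 at least 2-fold lower (0.819%), 460 in all (3.11%). The median log2 change over all genes tested was -0.01. In 34.9% of the genes tested, 5161 in all, the 3 libraries of one arm did not overlap those of the other. "Rose", "fell" and "changed" are used below only of genes that passed this threshold, and fold changes are given on the log2 scale with the standard error (SE). The gene lists used below were chosen with earlier results of these data known. Their shares beside those over all genes describe the lists and are not tests.

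Most cofactors of the receptor moved little, while Fkbp5 rose strongly and the receptor transcript Nr3c1 fell. In this list 5 of 17 genes tested passed, close to the share over all genes, and the list's median was 0.01. Fkbp5, a co-chaperone that lowers the receptor's affinity for hormone and a standard marker of receptor activity, was at 33.4, 37.1 and 34.7 CPM without Dexa and 715, 699 and 695 CPM with it. No library with Dexa came near any without it in this gene (chr17:28398753-28486149 in GRCm38.p6), and the log2 change was 4.33 (SE 0.0363, adjusted p 2.3e-35). Nr3c1, the receptor itself, was at 118, 94.3 and 110.2 CPM without Dexa and 77.3, 69.9 and 68.5 CPM with it. All 3 libraries with Dexa lay below all 3 without, and Nr3c1 fell by 0.58 on the log2 scale (SE 0.0774, adjusted p 4.52e-06). Among the chaperones, Hspa8, a constitutive Hsp70, rose by 0.35, and Hsp90ab1, the main cytosolic Hsp90 gene, had a log2 change of -0.05 (adjusted p 0.0864, and 0.0405 without replicate 3 with Dexa). Hsp90aa1, the inducible Hsp90, was higher by 0.14 (adjusted p 0.0296) and Nrip1, a nuclear receptor corepressor, by 0.20 (adjusted p 0.0388). Neither call was firm: leaving out replicate 2 without Dexa gave an adjusted p of 0.105 for Hsp90aa1 and 0.163 for Nrip1. Hsp90aa1 also lost its call without replicate 1 of KL001 alone (0.0797) and without replicate 2 (0.124) or 3 (0.0532) with Dexa, and Nrip1 without replicate 3 of KL001 alone (0.129) and replicate 1 with Dexa (0.223).

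**Figure D1:**
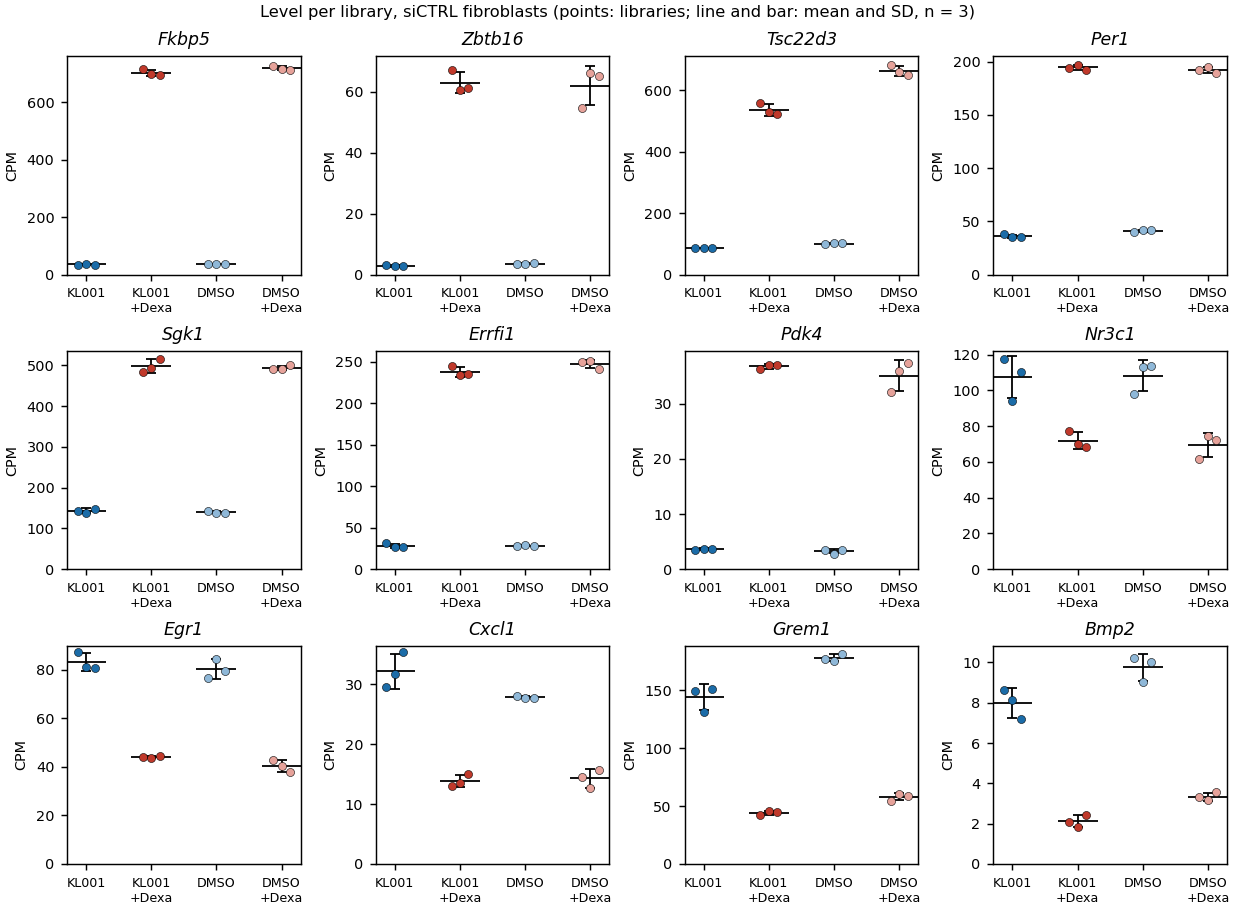
CPM in each library for 12 genes in siCTRL cells with KL001, KL001 and Dexa, DMSO, and DMSO and Dexa, each panel with an axis that starts at 0. Points are libraries, and lines and bars are the mean and SD of 3 libraries. In KL001, Fkbp5 lies between 33.4 and 37.1 CPM without Dexa and between 695 and 715 CPM with it, while Grem1 and Bmp2 lie lower with Dexa than without.

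Among genes that averaged 1 CPM or more in the 6 libraries and whose arms did not overlap, the 10 with the largest upward change were Map7d2, Hif3a, Fam107a, Serpina3m, Sult1a1, Greb1, Clca3a1, Dpep1, Zbtb16 and Fkbp5. Most of them were barely detected without Dexa. Map7d2, which encodes a microtubule-associated protein, had 4 reads in the 3 libraries of KL001 alone and 885 with Dexa. Its log2 change was 7.73 (SE 0.235), and the ratio of summed CPM was 233 with a 95% counting interval of 90.6 to 856. Hif3a, a hypoxia-inducible factor subunit, had 1 read without Dexa and 234 with it, a ratio of 246 with an interval of 43.8 to 9766, so its size is poorly fixed. Fam107a, an actin-binding protein induced by stress hormones, was at 0.117, 0.288 and 0.193 CPM without Dexa and 28.9, 28.6 and 28.0 CPM with it, a ratio of 144 (87.2 to 258). Serpina3m, of the serine protease inhibitor cluster, had 2 reads without and 283 with Dexa, a ratio of 149 (40.8 to 1235), and because it has near-identical neighbours its reads may be shared among them. These intervals cover counting error only.

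The remaining 6 of these genes changed by less. Sult1a1, a phenol sulfotransferase, was at 0.155, 0.123 and 0.0774 CPM without Dexa and 6.10, 5.71 and 5.47 CPM with it and rose by 5.54 on the log2 scale. Greb1, known as a hormone-responsive gene in breast and other tissues, was at 0.0777, 0.123 and 0.193 CPM without Dexa and 4.55, 5.31 and 4.98 CPM with it and rose by 5.18. Clca3a1, of the calcium-activated chloride channel regulator family, rose by 4.80, from 0.286 ± 0.171 to 8.18 ± 1.17 CPM (mean ± SD, n = 3). In Dpep1, a membrane dipeptidase, the change was 4.61, from 0.292 ± 0.156 to 7.19 ± 0.727 CPM. Zbtb16, a zinc finger repressor that glucocorticoids and progestins induce in many cell types, was at 3.07, 2.71 and 2.67 CPM without Dexa and 67.1, 60.7 and 61.3 CPM with it. The arms of Zbtb16 were far apart, with a log2 change of 4.48 (SE 0.0959, adjusted p 1.91e-24).

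The promoters of strongly induced genes were scanned for the palindromic glucocorticoid response element, to show what sequence lies at the start of the genes that moved most. The motif searched was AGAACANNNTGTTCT, which reads the same on both strands, with at most 2 mismatches in the 12 defined bases. The windows ran from 250 bases before to 50 after each annotated start (RefSeq, GRCm38.p6, the build named in the submitters' processing notes). Of 13 candidates, the 10 genes above with Tsc22d3, Per1 and Klf9, 11 had an entry, and Map7d2, Fam107a and Sult1a1 held a match. Sgk1 and Trim63 are printed as well and were chosen after their values were seen, as known glucocorticoid targets. Both are at least 2-fold higher and match with 0 and 1 mismatch. Car14, higher by 2.11 on the log2 scale, also matched with 1 mismatch and is not printed. Capitals mark the half-sites, and each stretch is written 5′ to 3′ on the gene's strand, up to the annotated start or to the end of a match that lies beyond it. The stretches are chrX:159458875-159459148 (plus strand) for Map7d2, chr14:8309778-8310027 (minus) for Fam107a, chr7:126676419-126676668 (minus) for Sult1a1, chr10:21993640-21993889 (plus) for Sgk1 and chr4:134314870-134315119 (plus) for Trim63.
Map7d2: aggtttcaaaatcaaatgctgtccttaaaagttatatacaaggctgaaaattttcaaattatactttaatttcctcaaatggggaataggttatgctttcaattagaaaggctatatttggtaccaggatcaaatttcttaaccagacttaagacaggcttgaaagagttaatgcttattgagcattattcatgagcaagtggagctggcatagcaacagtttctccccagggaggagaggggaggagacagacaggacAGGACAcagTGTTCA
Fam107a: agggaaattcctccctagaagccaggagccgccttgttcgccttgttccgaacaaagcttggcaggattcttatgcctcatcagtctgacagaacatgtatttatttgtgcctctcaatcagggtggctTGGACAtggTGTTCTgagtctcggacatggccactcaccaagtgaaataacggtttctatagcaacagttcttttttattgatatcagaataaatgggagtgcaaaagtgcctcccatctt
Sult1a1: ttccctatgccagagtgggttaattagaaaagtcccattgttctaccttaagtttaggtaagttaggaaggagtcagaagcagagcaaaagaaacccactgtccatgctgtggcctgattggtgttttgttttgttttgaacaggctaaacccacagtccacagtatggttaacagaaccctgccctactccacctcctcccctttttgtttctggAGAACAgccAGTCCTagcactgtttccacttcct
Sgk1: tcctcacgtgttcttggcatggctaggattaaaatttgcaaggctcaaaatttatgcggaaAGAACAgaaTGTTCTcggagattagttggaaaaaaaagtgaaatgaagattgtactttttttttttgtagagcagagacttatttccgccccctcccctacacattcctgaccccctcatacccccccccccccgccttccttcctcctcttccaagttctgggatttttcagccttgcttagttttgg
Trim63: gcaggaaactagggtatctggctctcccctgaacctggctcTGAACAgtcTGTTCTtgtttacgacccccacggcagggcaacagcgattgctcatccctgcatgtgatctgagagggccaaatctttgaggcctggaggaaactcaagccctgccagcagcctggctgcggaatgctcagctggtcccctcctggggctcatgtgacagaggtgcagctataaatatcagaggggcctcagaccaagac

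Counting motif positions from 1 at its 5′ end, Map7d2 differed from the motif by A3G and T15A, Fam107a by A1T and A3G, Sult1a1 by T10A and T13C, and Trim63 by A1T. The Sgk1 window held the motif without a mismatch, with its first base 189 bases before the annotated start, and was 1 of only 3 exact matches among 32851 promoter windows. The first base of the match lay 121 bases before the start in Fam107a, 34 before in Sult1a1, 209 before in Trim63 and 9 after in Map7d2. Map7d2, Fam107a and Sgk1 have further annotated starts, each with a window of its own. The printed Map7d2 stretch lies inside the annotated gene (chrX:159414492-159498958), and those of Fam107a (chr14:8296270-8317607), Sult1a1 (chr7:126672865-126690443) and Sgk1 (chr10:21882184-21999903) also lie inside their genes, so each is at an internal start. Over all windows 606 (1.84%) held a match with at most 2 mismatches. Among windows of genes tested the share was 1.14%, among the 309 windows of genes at least 2-fold higher it was 4.21% (13 windows of 11 genes, with the same Fam107a site in 2 of them), and among the 87 windows of genes at least 2-fold lower it was 2.3% (2 windows). Allowing 1 mismatch left 3 of the 309 windows and 54 of all. The best match had 6 mismatches in Fkbp5, 4 in Tsc22d3, and 5 in Per1 and Klf9. A match is a description of the letters, and its absence from this window says nothing of elements elsewhere.

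Transcription regulators known to be induced by glucocorticoids mostly rose. All 20 genes of the list were tested, 11 rose (against 12.7% of all genes) and 5 fell, and the median was 0.59. Tsc22d3, the glucocorticoid-induced leucine zipper protein that binds NF-kB and AP-1, was at 87.6, 87.6 and 86.5 CPM without Dexa and 558, 528 and 522 CPM with it, and the log2 change was 2.62 (SE 0.0311, adjusted p 1.91e-31). Klf15, a Krüppel-like factor of amino acid and fat metabolism, was at 2.80, 3.33 and 2.82 CPM without Dexa and 18.0, 16.3 and 16.4 CPM with it and rose by 2.50. Cebpd, an early factor of the adipocyte and acute-phase programmes, was at 8.27, 8.76 and 8.12 CPM without Dexa and 48.0, 44.9 and 42.5 CPM with it and rose by 2.43. These 3 genes showed no overlap between the arms. Smaller rises were seen in Foxo3 (1.20), Klf9 (1.13) and Cebpb (0.87).

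Several members went the other way. Ahr, the aryl hydrocarbon receptor, was at 30.5, 23.8 and 26.1 CPM without Dexa and 12.6, 12.8 and 14.2 CPM with it and fell by 1.02 on the log2 scale. Cebpa, which drives late adipocyte differentiation, fell by 0.61, Foxo1 by 0.36 and Klf4 by 0.34. Bcl6, a repressor counted among receptor targets in other cells, had a log2 change of -0.10 (adjusted p 0.196) with overlapping libraries.

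In a list of signalling regulators, mostly inhibitors, picked for their known induction by glucocorticoids, 13 of 18 tested rose (against 12.7% of all genes), 3 fell, and the median was 0.70. Errfi1, an inhibitor of the EGF receptor, was at 31.2, 26.9 and 26.7 CPM without Dexa and 244, 234 and 235 CPM with it. Its arms were well separated, with a log2 change of 3.07 (SE 0.042, adjusted p 5.23e-30). Sgk1, the serum- and glucocorticoid-regulated kinase whose promoter is printed above, was at 144, 138 and 149 CPM without Dexa and 483, 493 and 517 CPM with it and rose by 1.79 (SE 0.0313). Rgs2, which quenches G protein signalling, was at 14.4, 14.2 and 13.7 CPM without Dexa and 86.1, 82.7 and 84.1 CPM with it and rose by 2.58, and Map3k6, a stress kinase, rose by 2.09. Dusp1, the phosphatase that switches off p38 and JNK, rose by 1.05, from 41.5 ± 2.24 to 86.1 ± 2.48 CPM. Nfkbia, the inhibitor that holds NF-kB in the cytoplasm, rose by 0.84, from 39.8 ± 2.49 to 71.4 ± 1.36 CPM.

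Rises in the same list also took in Cdkn1a, the cell cycle inhibitor p21 (1.14), Tgfbr3, the TGF-beta coreceptor betaglycan (1.01), Pik3r1, the regulatory subunit of PI3 kinase (0.97), Anxa1, an anti-inflammatory annexin (0.45), and Ddit4, an inhibitor of mTORC1 (0.36). Cish, a cytokine signalling suppressor, fell by 0.47, and Il1r1, the interleukin-1 receptor, by 0.43. Socs3, another suppressor, was at 21.8, 22.4 and 20.2 CPM without Dexa and 20.5, 21.7 and 20.9 CPM with it, with overlapping arms and a log2 change of -0.03 (adjusted p 0.811).

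The metabolic and secreted targets had the highest median of the lists, 1.61, with 11 of the 16 tested higher (against 12.7% of all genes) and 3 lower. The other 6 of the 22 did not pass the filter on low counts, so the median describes only detected members. The filter ran over all 8 groups, so members near 0 without Dexa, such as Fam107a and Sult1a1, could pass it through their level with Dexa. Low members that Dexa did not raise could not, so the count and the median may be raised by the filter. Pdk4, which turns off pyruvate oxidation, was at 3.42, 3.66 and 3.71 CPM without Dexa and 36.3, 37.0 and 37.1 CPM with it, and its log2 change was 3.35 (SE 0.0852, adjusted p 2.68e-23). Glul, glutamine synthetase, was at 9.48, 10.5 and 9.05 CPM without Dexa and 54.9, 53.2 and 53.1 CPM with it and rose by 2.48. Metallothioneins, which bind zinc and copper, rose together: Mt2 was at 14.9, 16.9 and 15.9 CPM without Dexa and 137, 126 and 139.8 CPM with it, a change of 3.08. Mt1 rose by 1.85, from 68.8 ± 7.76 to 247 ± 13.3 CPM. Lcn2, an iron-binding acute-phase protein, was at 0.621, 0.370 and 0.503 CPM without Dexa and 3.23, 5.0 and 3.09 CPM with it and rose by 2.90 with a wide SE of 0.492. Among the members that fell were Angptl4, an inhibitor of lipoprotein lipase (-0.77), Gadd45a, a growth arrest protein (-0.38), and Aqp1, a water channel (-0.26).

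**Figure D2:**
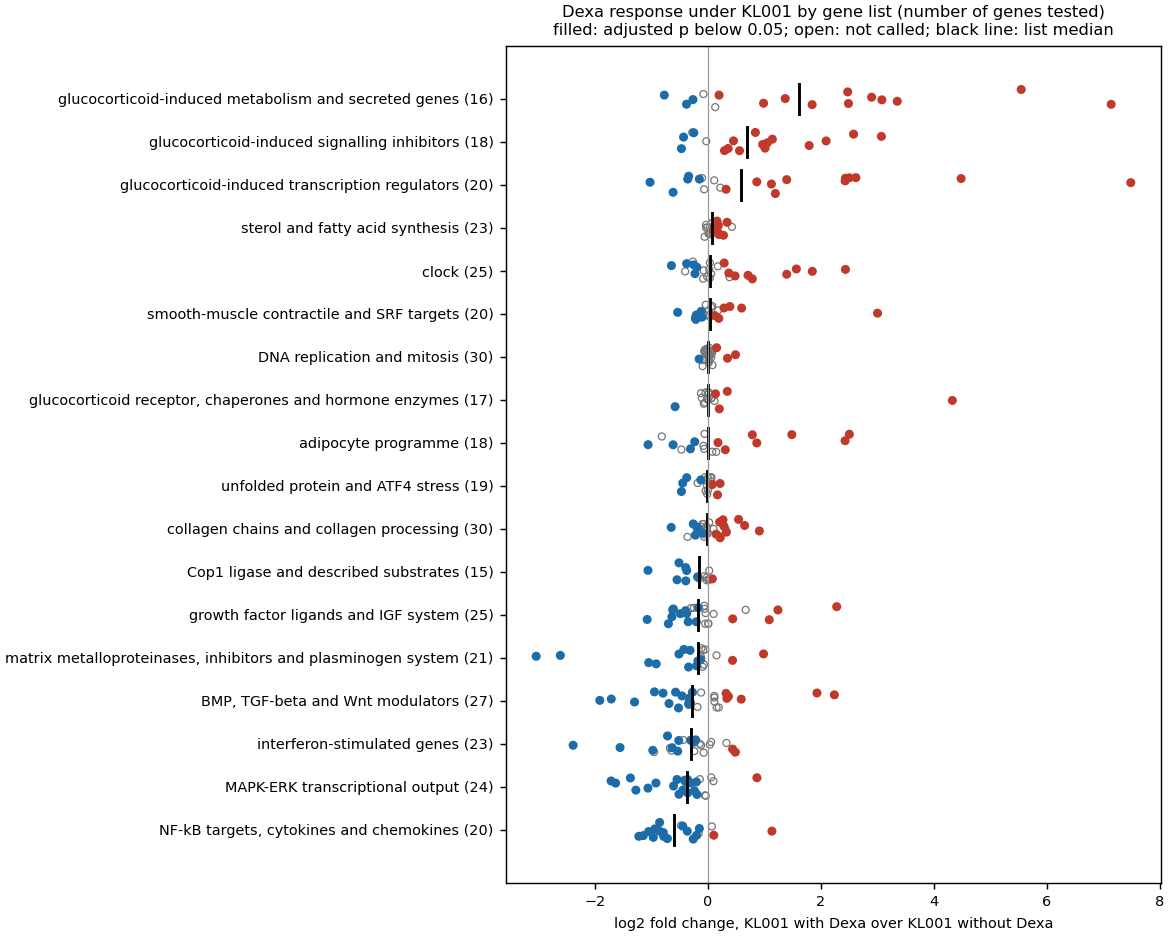
Log2 change with Dexa under KL001 (horizontal axis) for every tested gene of 18 lists (vertical axis, number tested in brackets), from the list with the highest median to the one with the lowest. Red and blue points passed the threshold, open points did not, and black lines are list medians, which run from 1.61 for metabolic and secreted targets to -0.59 for NF-kB targets.

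Clock genes changed in a graded way, led by Per1 and Per2. Of 25 genes tested, 9 rose and 5 fell (56% against 26.8% over all genes), and the median was 0.04. Per1, the period gene that the receptor induces directly, was at 37.6, 35.3 and 35 CPM without Dexa and 194, 197 and 193 CPM with it and rose by 2.44 (SE 0.0359, adjusted p 3.46e-29). Per2 was at 7.85, 5.06 and 6.50 CPM without Dexa and 24.6, 21.5 and 24 CPM with it and rose by 1.85 (SE 0.0959). The Per1 gene lies at chr11:69095108-69109965. Both showed no overlap, whereas Per3 had a change of 0.06 (adjusted p 0.606) with overlapping arms.

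The cryptochrome transcripts, whose protein products KL001 binds, rose too. Cry1 was at 5.90, 5.10 and 6.42 CPM without Dexa and 10.1, 10.1 and 9.88 CPM with it, a change of 0.79 (SE 0.0802, adjusted p 3.61e-09). Cry2 was at 30.2, 27.8 and 28.5 CPM without Dexa and 37.9, 38.4 and 35.7 CPM with it, a change of 0.37 (SE 0.0481, adjusted p 3.16e-07). In both genes every library with Dexa was above every library without. Among the other members of the repressor limb and its outputs, Nfil3, a repressor of D-box genes, rose by 1.4, Hlf by 1.57 and Tef by 0.48, the last 2 being D-box activators. Ciart, a clock repressor, rose by 0.71 and Bhlhe41, an E-box repressor, by 0.29.

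The E-box activators and the nuclear receptors of the clock fell or did not pass. Nr1d1, the repressor Rev-erb alpha, was at 54.8, 52.7 and 49.2 CPM without Dexa and 41.6, 38.2 and 40.9 CPM with it and fell by 0.37 (SE 0.0453, adjusted p 9.66e-08). Csnk1e, a kinase of period proteins, fell by 0.25. Arntl and Clock, the 2 core activators, had changes of -0.07 and 0.18 (adjusted p 0.501 and 0.153). Clock passed the threshold without replicate 1 of KL001 alone (adjusted p 0.0384) and without a filter on low counts (0.0003). The call without the filter came at a nearly unchanged log2 change of 0.19, and a limit of that fit is given below. Nr1d2 (-0.19), Dbp (-0.23) and Npas2 (-0.64) were lower and passed, but not in every subset of libraries. Nr1d2 had an adjusted p of 0.119 without replicate 3 of KL001 alone. For Npas2 it was 0.057 without replicate 1 of KL001 alone and 0.104 without replicate 3 with Dexa. For Dbp it rose to 0.0742 and 0.0803 without replicates 2 and 3 with Dexa, and to 0.102 and 0.0619 without replicates 2 and 3 of KL001 alone.

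**Figure D3:**
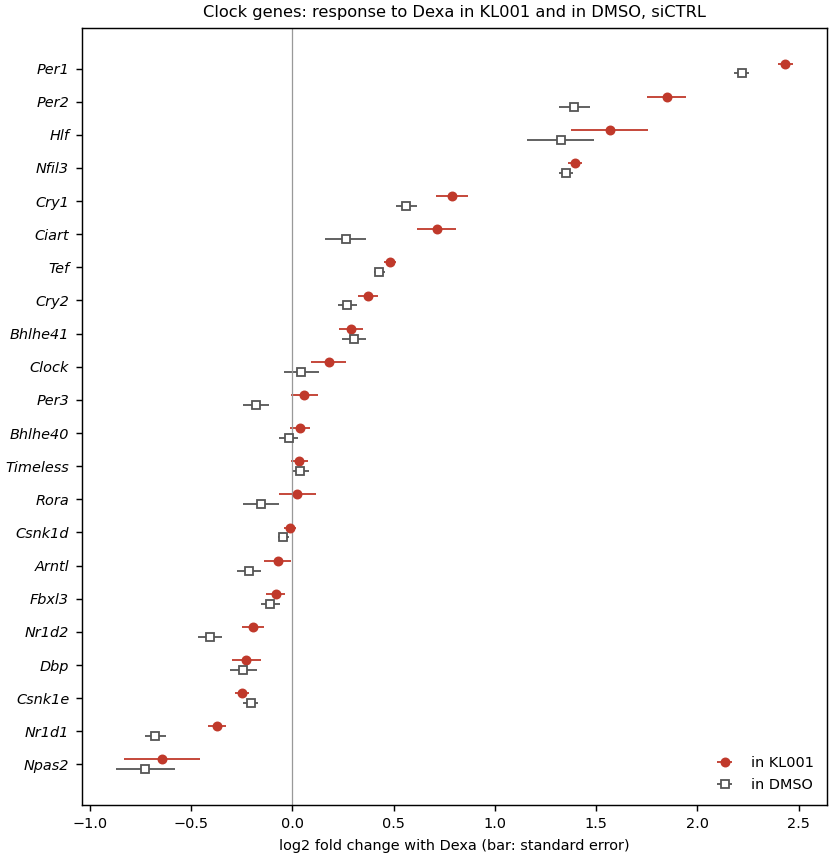
Log2 change with Dexa (horizontal axis) of the 22 clock genes that averaged 1 CPM or more over these 12 libraries (vertical axis) in siCTRL cells under KL001 (red circles) and in DMSO (open squares), with bars for the standard error. Per1 changes by 2.44 in KL001 and 2.22 in DMSO, and Cry1 by 0.79 and 0.56.

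Genes that read out MAPK-ERK signalling went down together: of 24 tested, 18 fell (against 14% of all genes), 1 rose and the median was -0.37. Egr1, an immediate early zinc finger factor, was at 87.4, 81.1 and 80.7 CPM without Dexa and 43.9, 43.6 and 44.4 CPM with it, and fell by 0.92 (SE 0.0515, adjusted p 6.84e-15). Egr2 fell by 1.27, from 1.95 ± 0.204 to 0.803 ± 0.0591 CPM, and Egr3 by 1.63, from 1.85 ± 0.346 to 0.595 ± 0.0376 CPM (mean ± SD, n = 3). Phlda1, a pro-apoptotic early response gene, was at 26.7, 30.3 and 26.9 CPM without Dexa and 11.4, 10.1 and 10.9 CPM with it and fell by 1.37. Etv5, an ETS factor downstream of growth factor receptors, was at 25.8, 24.3 and 25.3 CPM without Dexa and 12.7, 11.3 and 12.2 CPM with it and fell by 1.06, and its relative Etv4 by 0.51.

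The feedback phosphatases of the pathway split. Dusp4 was at 2.29, 2.34 and 1.93 CPM without Dexa and 0.798, 0.571 and 0.617 CPM with it and fell by 1.71, and Dusp6, which acts on ERK in the cytoplasm, fell by 0.44. Dusp5, its nuclear counterpart, was at 8.43, 10.8 and 9.21 CPM without Dexa and 17.0, 17.3 and 17.5 CPM with it and rose by 0.87, the 1 gene of the list to do so. Spry2 fell by 0.36, Ier3 by 0.61 and Jun, a subunit of AP-1, by 0.39. Myc was at 58.8, 64.5 and 59.6 CPM without Dexa and 62.0, 67.7 and 66.2 CPM with it, a change of 0.10 (adjusted p 0.0725), but it passed without replicate 1 with Dexa (adjusted p 0.0223) or without replicate 2 of KL001 alone (0.0118).

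The inflammatory list had the lowest median, -0.59: 15 of the 20 genes tested fell (against 14% of all genes) and 2 rose. The other 11 of its 31 genes, among them the cytokines Il6, Il1b and Tnf, did not pass the filter on low counts. Cxcl1, a neutrophil chemokine, was at 29.5, 31.7 and 35.3 CPM without Dexa and 13, 13.5 and 14.9 CPM with it and fell by 1.22 (SE 0.0738, adjusted p 4.19e-14). Cxcl5 was at 224, 205 and 248 CPM without Dexa and 115, 113 and 120.1 CPM with it and fell by 0.96, and Cx3cl1 was at 49.8, 51.8 and 48.1 CPM without Dexa and 25.1, 22.7 and 24.5 CPM with it and fell by 1.05. None of these chemokines had overlapping arms. Cxcl12, a homing chemokine abundant in fibroblasts, was at 604, 576 and 592 CPM without Dexa and 353, 341 and 333 CPM with it and fell by 0.79. Ccl2, a monocyte chemokine, fell by 0.85, from 14.4 ± 3.06 to 7.98 ± 0.860 CPM.

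Enzymes, adhesion molecules and factors of the list followed. Ptgs2, the inducible cyclooxygenase, was at 29.2, 22.9 and 29.1 CPM without Dexa and 14.7, 14.9 and 15.4 CPM with it and fell by 0.85. Vcam1, which binds leukocyte integrins, was at 85.3, 74.8 and 82.2 CPM without Dexa and 51.9, 48.7 and 47.0 CPM with it and fell by 0.72. Of the NF-kB subunits, Relb fell by 0.78 and Nfkb2 by 0.36, and Rela was lower by 0.15, a call lost without replicate 2 of KL001 alone (adjusted p 0.0624). Nfkb1 had a change of 0.07 (adjusted p 0.0822) and passed without replicate 1 of KL001 alone (0.0249). Il34, a ligand of the macrophage colony-stimulating factor receptor, was at 5.09, 5.47 and 6.0 CPM without Dexa and 11.5, 12.2 and 12.6 CPM with it and rose by 1.13, and Csf1, the other ligand of that receptor, rose by 0.11. Csf1r, the receptor itself and a macrophage marker, fell by 1.5, but at 1.39 CPM without Dexa and 0.489 CPM with it. In bulk RNA, fewer cells of a type and less RNA per cell cannot be told apart.

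Interferon-stimulated genes were lower in part. Of 23 tested, 10 fell and 2 rose (52.2% against 26.8% over all genes). The median was -0.30 and became -0.50 without replicate 1 with Dexa. Ifih1, a sensor of double-stranded RNA, was at 10.1, 9.99 and 10.3 CPM without Dexa and 5.15, 5.09 and 5.23 CPM with it and fell by 0.97 (SE 0.0832, adjusted p 9.26e-11). Ifit3 fell by 0.71 and Ifit3b by 1.55, though reads of these near-identical copies may be divided between them. Ddx58, the RNA sensor RIG-I, fell by 0.25. Stat2 and Ifi35 rose, by 0.44 and 0.49.

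Proteases of the matrix and of the plasminogen system were mostly lower, with 11 of 21 falling (against 14% of all genes) and 2 rising. Mmp3, stromelysin, was at 28.6, 18.1 and 26 CPM without Dexa and 12.8, 11.5 and 10.9 CPM with it and fell by 1.05 (SE 0.111, adjusted p 1.19e-07). Replicate 2 of KL001 alone was the lowest of its arm and still above every library with Dexa. The collagenase Mmp13 and the stromelysin Mmp10 had larger log2 changes, -2.61 and -3.04, from mean levels of only 0.780 and 0.263 CPM. Plat, tissue plasminogen activator, was at 88.6, 86.7 and 92.9 CPM without Dexa and 49.1, 45.0 and 48.1 CPM with it and fell by 0.91, while Plau, urokinase, had a change of -0.07 (adjusted p 0.374). Plaur, the urokinase receptor, fell by 0.42 and Timp3, a protease inhibitor bound to the matrix, by 0.51.

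Among the metalloproteinases of the list, Mmp19 rose by 0.44. Mmp14, a membrane-bound activator of other metalloproteinases, fell by 0.18, from 831 ± 16.4 to 736 ± 7.89 CPM.

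The 10 genes with the largest downward change by the rule used for the upward ones were Slfn2, Rassf9, Bmp2, Shisa2, Cxxc4, Il7, Dusp4, Grem1, Kank4 and Pstpip2. Their changes ran from -2.38 to -1.68, far smaller than those of the upward 10. Slfn2, of the Schlafen family, whose copies may share reads, was at 1.67, 2.30 and 2.17 CPM without Dexa and 0.439, 0.351 and 0.370 CPM with it. Rassf9 was at 2.99, 2.43 and 2.51 CPM without Dexa and 0.598, 0.614 and 0.329 CPM with it, and Il7, a lymphocyte survival cytokine, at 1.94, 2.26 and 2.67 CPM without Dexa and 0.638, 0.614 and 0.700 CPM with it. All of these were at a few CPM, and the rule admitted only genes whose arms did not overlap. Cxxc4, an inhibitor of Wnt signalling, fell by 1.82, Shisa2, which retains FGF and Wnt receptors in the endoplasmic reticulum, by 1.85, Kank4 by 1.68, and Pstpip2, a membrane-bending adaptor, by 1.68.

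Secreted regulators of BMP, TGF-beta and Wnt signalling moved in both directions. Of 27 tested, 13 fell and 6 rose (70.4% against 26.8% over all genes), and the median was -0.27. Grem1, a secreted antagonist of BMPs, was at 149, 132 and 151 CPM without Dexa and 42.0, 45.6 and 44.9 CPM with it and fell by 1.71 (SE 0.0484, adjusted p 4.16e-22). The gene lies at chr2:113748675-113758648, and Bmp2, which encodes a ligand of Grem1 and lies at chr2:133552159-133562896, was at 8.62, 8.14 and 7.19 CPM without Dexa and 2.07, 1.84 and 2.43 CPM with it and fell by 1.91 (SE 0.127). Fst, which neutralises activins, was at 9.55, 9.79 and 10.8 CPM without Dexa and 47.3, 47.5 and 47.8 CPM with it and rose by 2.24 (SE 0.0583, adjusted p 4.83e-23). The BMP antagonist Nog rose by 1.93, from a mean of 0.147 CPM. Targets of BMP signalling were mixed, with Id2 and Id3 higher by 0.36 and 0.32 and Id1 at 0.11 (adjusted p 0.303).

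On the Wnt and TGF-beta side, Dkk2, a Wnt antagonist, was at 29.4, 26.6 and 32.3 CPM without Dexa and 16.2, 14.4 and 15.3 CPM with it and fell by 0.94. Sfrp2, a secreted Wnt-binding protein, was at 1003, 971 and 942 CPM without Dexa and 589, 541 and 553 CPM with it and fell by 0.79. The ligands Wnt5a, Wnt5b and Tgfb3 fell by 0.52, 0.57 and 0.69, and Bmp4 by 0.27. Axin2, a target of canonical Wnt signalling, rose by 0.59.

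Among growth factor genes falls outnumbered rises, with 11 of 25 lower and 4 higher (60% against 26.8% over all genes). Tgfa, a ligand of the EGF receptor, was at 11.7, 10.6 and 11.6 CPM without Dexa and 27.8, 27.3 and 25.0 CPM with it and rose by 1.24, whereas Hbegf, another such ligand, was at 21.9, 21.9 and 21.8 CPM without Dexa and 14.2, 14.0 and 14.1 CPM with it and fell by 0.64. Kitl, stem cell factor, was at 231, 185 and 219 CPM without Dexa and 465, 442 and 443 CPM with it and rose by 1.09. Igf1 fell by 0.62 and its binding protein Igfbp5 by 0.70, Igfbp2 rose by 2.28 from 0.119 CPM, and Fgf10 fell by 0.49. Of the receptors for platelet-derived growth factor, which also mark fibroblasts, Pdgfra rose by 1.04, from 64.3 ± 6.17 to 132 ± 10.6 CPM, and Pdgfrb fell by 0.66, from 429 ± 25.6 to 271 ± 12.8 CPM.

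Collagens and their processing enzymes moved both ways: of 30 tested, 10 rose and 6 fell, which is 53.3% against 26.8% over all genes, and the median was -0.02. Lox, which cross-links collagen, was at 1925, 1656 and 1892 CPM without Dexa and 2920.2, 2823 and 2850.4 CPM with it and rose by 0.65. Col12a1 rose by 0.54, Col11a1 by 0.33, and the basement membrane chain Col4a1 by 0.27. The major fibrillar chains did not follow. Col3a1 fell by 0.18, and Col1a1 and Col1a2 had changes of -0.10 and -0.06 (adjusted p 0.126 and 0.0905). Col1a1 passed as lower without replicate 3 of KL001 alone (0.00737), and Col1a2 without replicate 2 of KL001 alone (0.0244) or replicate 1 with Dexa (0.0379).

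Contractile genes and targets of serum response factor split evenly, 6 up and 6 down of 20 tested (60% against 26.8% over all genes). Their median was 0.03. Ctgf, a matricellular growth factor, stood out: it was at 126, 136 and 139 CPM without Dexa and 1026, 1075 and 1113 CPM with it, a log2 change of 3.00 (SE 0.0379, adjusted p 7.31e-31). Its relative Cyr61 rose by only 0.29. Lmod1, an actin nucleator, rose by 0.60 and Smtn, a contractile protein, by 0.39. Ankrd1 fell by 0.53 and Srf, the factor itself, by 0.22. Acta2, smooth muscle actin, was at 2656, 2861 and 2728 CPM without Dexa and 2759, 2761 and 2889 CPM with it, with overlapping arms and a change of 0.03 (adjusted p 0.494).

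Adipocyte genes were likewise divided, 7 up and 4 down of 18 tested (61.1% against 26.8% over all genes). Their median was 0.01, and 0.13 without replicate 2 of KL001 alone. The early factors Cebpb and Cebpd rose, as given above, and so did the fatty acid binding proteins. Fabp4 was at 17.2, 20.5 and 19.5 CPM without Dexa and 52.2, 53.0 and 54.9 CPM with it, a rise of 1.49, and Fabp5 rose by 0.79. Lpl, lipoprotein lipase, was at 23.3, 31.4 and 22.1 CPM without Dexa and 14.2, 11.7 and 10.9 CPM with it and fell by 1.06, and Plin2, which coats lipid droplets, fell by 0.31. Pparg, the master factor of fat cells, was lower by 0.23 (adjusted p 0.0206), a call lost without replicate 2 or 3 of KL001 alone (0.12 and 0.0545) and without replicate 2 or 3 with Dexa (0.0602 and 0.0643).

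Genes of DNA replication and mitosis were nearly flat: 4 of 30 passed, a share of 13.3% against 26.8% over all genes, and the median was 0.01. Ccne2, a G1/S cyclin, was at 14.5, 12.3 and 15.7 CPM without Dexa and 19.0, 20.7 and 20.2 CPM with it and rose by 0.49, and Rrm2, a subunit of ribonucleotide reductase, rose by 0.35. Mki67 and Top2a, markers of dividing cells, had changes of 0.06 and 0.02 (adjusted p 0.677 and 0.796). Ccne1 was higher by 0.16 and Gins2 lower by 0.15. Of these 2, Ccne1 did not pass without replicate 1 or 3 of either arm (adjusted p 0.0739 to 0.13) or without replicate 2 of both (0.0553), nor Gins2 without replicate 2 of KL001 alone (0.0929) or with Dexa (0.0537).

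Sterol and fatty acid synthesis genes, controlled by SREBP factors, were higher in 8 of 23 cases and lower in none, with a median of 0.08. The share that passed, 34.8%, was all upward, against 12.7% of all genes higher and 26.8% passing in either direction. Scd2, a fatty acid desaturase, was at 3587, 3228 and 3315 CPM without Dexa and 4348, 4238 and 4241 CPM with it and rose by 0.34. Lss and Mvd, enzymes of cholesterol synthesis, rose by 0.28 and 0.18. Genes of the unfolded protein and ATF4 stress responses were divided, 3 up and 4 down of 19. The 36.8% of them that passed is near the 26.8% over all genes. The stress factors Atf3, Ddit3 and Atf4 fell by 0.47, 0.44 and 0.12 (Atf4 with an adjusted p of 0.0767 when only the 2 groups were fitted) and the pseudokinase Trib3 by 0.37, while Xbp1 and Herpud1, of the endoplasmic reticulum branch, rose by 0.17 and 0.22.

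Of the core components of the Cop1 ligase none but Ddb1 passed, while transcripts of several of its described substrates fell. Cop1, listed under its older symbol Rfwd2, was at 28.7, 26.2 and 28.0 CPM without Dexa and 27.9, 27.7 and 28.6 CPM with it, with overlapping arms and a change of 0.02 (adjusted p 0.817). Ddb1, the adaptor of the complex, was higher by 0.08 (adjusted p 0.0225), which did not hold without replicate 2 or 3 of KL001 alone (0.0535 and 0.121) or replicate 1 or 3 with Dexa (0.0517 and 0.0752). In this list of 15 genes 8 passed, 53.3% against 26.8% over all genes. Of these, 7 fell, among them Etv5, Etv4 and Jun with the values given above and Trib2, which recruits substrates to the ligase, by 0.39.

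Of the 3 neural markers tested, 2 rose (against 12.7% of all genes). Map2, a neuronal microtubule protein at 259 CPM without Dexa, rose by 0.71, and Mbp, a myelin protein at 1.84 CPM, by 0.87. In each of the squamous, airway, macrophage and endothelial lists 1 marker passed. That is 12.5%, 12.5%, 25% and 20% of those tested, against 26.8% over all genes. Krt19, a simple epithelial keratin, fell by 0.52. Some sums differed between the arms without overlap. The 8 neural markers summed to 248 to 290.2 CPM without Dexa and 437 to 445 CPM with it, the 10 airway and simple epithelial markers to 35.7 to 46.9 and 23.4 to 35 CPM, and the 8 endothelial markers to 2.44 to 3.45 and 1.64 to 1.89 CPM. Map2 made up most of the neural sum, and 3 or 4 of the 8 neural markers were at 0 in each of the 6 libraries. Tek, an endothelial receptor and a large part of the endothelial sum, fell by 2.12 from 1.28 CPM. Trp63, a squamous epithelial factor, was higher by 0.58 with overlapping arms and did not pass without replicate 2 of both arms (adjusted p 0.205). The summed level of the 9 squamous markers was 10.4 to 14.6 CPM without Dexa and 9.42 to 27.0 CPM with it. The part of other cell types in the results was not tested.

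The response under KL001 was next set against the response in DMSO, from 6 libraries that share none with it. Heart muscle markers summed to 37.5 to 87.7 CPM in DMSO without Dexa and to 13.1 to 126.0 CPM with it, so these transcripts varied there too. In DMSO 3957 genes passed (26.8%), and 2920 passed in both, which is 73.9% of the calls in KL001 and 73.8% of those in DMSO. All 2920 had the same sign. Of the 1032 genes that passed in KL001 and not in DMSO, 949 had the same sign in DMSO. Of the 460 genes with changes of at least 2-fold in KL001, 397 also passed in DMSO and 452 had the same sign. Fkbp5 changed by 4.33 in KL001 and 4.30 in DMSO, Errfi1 by 3.07 and 3.13, Pdk4 by 3.35 and 3.41, Nr3c1 by -0.58 and -0.64 and Egr1 by -0.92 and -0.98.

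The difference between the responses was tested directly. No gene passed (0%) in the quasi-likelihood test of edgeR, in which 888 genes (6.01%) had an unadjusted p below 0.05. DESeq2 called 2 genes, among them Ctgf. Without a filter on low counts edgeR called 133, of which 127 were among the 14772 genes. Leaving out replicate 1 of KL001 with Dexa also gave 2, again with Ctgf (adjusted p 0.0312), and leaving out replicate 2 of KL001 alone, or replicate 2 of both arms, gave 1, Mmp3 (0.00065 and 0.00548). The intervals show how far the responses could differ. The 95% interval of the difference lay within 0.5 on the log2 scale for 10432 genes, 70.6% of those tested, and within 1 for 12297. Among the 460 genes with changes of at least 2-fold it lay within 1 for 264 and within 0.5 for 167. For Fkbp5 the difference was 0.02 (95% interval -0.08 to 0.13), for Sgk1 -0.02 (-0.11 to 0.06) and for Grem1 -0.09 (-0.23 to 0.05).

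Genes with small p-values in this test are given as values, since none passed and all were chosen after their values were seen. Ctgf, whose levels under KL001 are given above, was at 165, 165 and 164 CPM without Dexa and 1071, 1113 and 1111 CPM with it in DMSO. For Ctgf the difference was 0.27 (0.16 to 0.37, adjusted p 0.0995), from responses of 3.00 and 2.74. Serpina3n, an acute-phase protease inhibitor with close copies, was at 0.971, 0.617 and 0.735 CPM without Dexa and 4.99, 3.69 and 4.44 CPM with it in KL001 and at 0.361, 0.337 and 0.238 CPM without Dexa and 7.43, 6.67 and 5.78 CPM with it in DMSO. Its difference was -1.89 (-2.66 to -1.13, adjusted p 0.101). Without a filter on low counts, in the fit with the limit given above, the differences of Ctgf (adjusted p 0.000126), Serpina3n (7.06e-05), Greb1 (0.0276) and Cdo1 (0.0321) passed. Greb1 changed by 5.18 in KL001 and 3.29 in DMSO (adjusted p of the difference 0.178), and Cdo1, which oxidises cysteine, by 2.10 and 1.81 (adjusted p 0.128).

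For the clock genes no difference between KL001 and DMSO passed in the main fit. Without a filter on low counts those of Per2 (adjusted p 0.00516) and Nr1d1 (0.0308) passed, at nearly unchanged differences of 0.46 and 0.30. The limit of that fit given above holds for both. Nr1d1 fell by 0.37 in KL001 and by 0.68 in DMSO, a difference of 0.30 (95% interval 0.16 to 0.44, adjusted p 0.225). Per1 rose by 2.44 and 2.22, a difference of 0.22 (0.11 to 0.32, adjusted p 0.269). Per2 rose by 1.85 and 1.39, a difference of 0.46 (0.20 to 0.72, adjusted p 0.444). For Cry1 the difference was 0.22 (0.03 to 0.42, adjusted p 0.81).

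**Figure D4:**
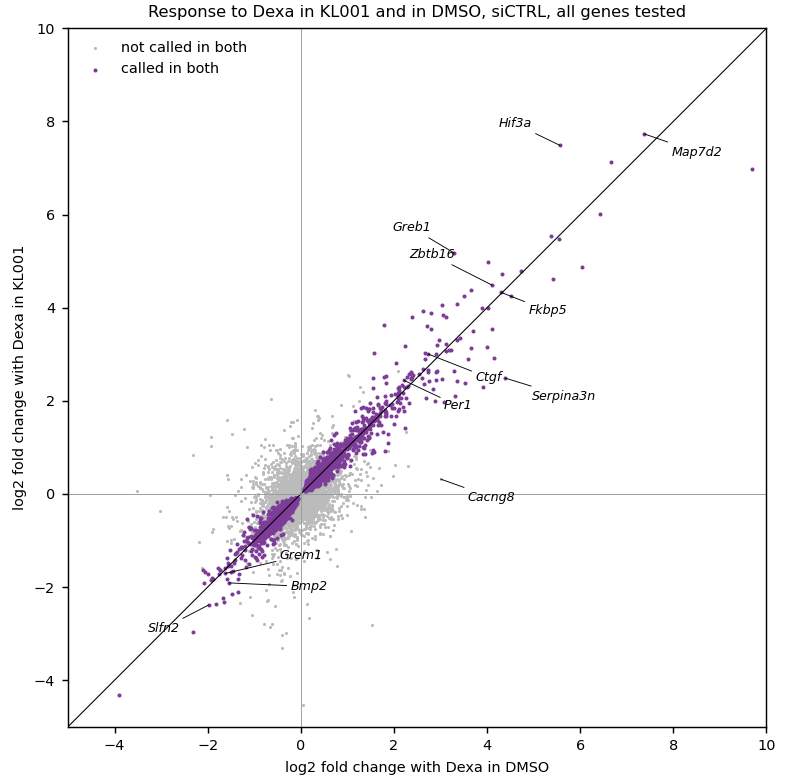
Log2 change with Dexa of 14772 genes in siCTRL cells in DMSO (horizontal axis) and in KL001 (vertical axis), with the line of equal change. Purple points are the 2920 genes that passed in both, all with the same sign. Genes such as Serpina3n and Cacng8 lie off the line. No difference passed in the edgeR test with its filter on low counts. Those of both named genes passed without the filter, in a fit whose limit is given in the text.

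The last comparison set the response under KL001 in siCTRL cells beside that in siCop1 cells under KL001, again without shared libraries. The knockdown target Rfwd2 was at 4.33, 5.17 and 5.79 CPM without Dexa and 4.49, 5.11 and 4.97 CPM with it in siCop1 cells, below every siCTRL library under KL001. The difference between the responses passed for 83 genes (0.562%), 39 with a higher (0.264%) and 44 with a lower (0.298%) change after siCop1. In siCop1 cells under KL001 the response itself passed for 3620 genes (24.5%). Of the 83, 76 had changed in siCTRL cells. Among these, 38 rises and 23 falls were smaller with siCop1, while 12 rises and 3 falls were larger. The smaller ones include 7 whose fitted change had the opposite sign in siCop1 cells, 4 of which passed there with that sign. The same siCTRL libraries enter the response and the difference, and choosing by a called siCTRL response favours genes with large changes there. The balance of smaller over larger changes is therefore not read as a result. The count depended on single libraries. It was 51 without replicate 3 of siCTRL, KL001 and Dexa, 43 without replicate 2 of siCop1, KL001 and Dexa, and 54 without replicate 3 of siCop1 and KL001. It was 52 when only the 4 groups were fitted and 156 without a filter on low counts.

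Several rises were smaller on the log2 scale with siCop1. Such a difference can come from the level without Dexa as well as from the level with it. Fkbp5 rose by 4.33 in siCTRL and 3.69 in siCop1 cells, a difference of -0.64 (adjusted p 1.01e-09). Errfi1 was at 51.1, 49.7 and 50.4 CPM without Dexa and 248, 245 and 242 CPM with it in siCop1 cells, a rise of 2.28 against 3.07 in siCTRL (difference -0.79, adjusted p 7.53e-10). Its siCop1 levels lay above the siCTRL levels given earlier without Dexa and close to them with Dexa. Glul rose by 1.76 against 2.48 (difference -0.71, adjusted p 8.24e-06) and Fst by 1.56 against 2.24 (difference -0.67, adjusted p 1.42e-05). Ccbe1, a secreted factor of lymphatic growth, rose by 1.6 against 2.60 (difference -1.0) and Klf5, a Krüppel-like factor, by 1.07 in siCTRL with a change of 0.30 in siCop1 (difference -0.78). Not every induced gene followed: for Tsc22d3 the difference was 0.11 (95% interval 0.02 to 0.20, adjusted p 0.465) and for Per1 -0.0019 (-0.11 to 0.10, adjusted p 0.998).

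Other genes had a higher log2 change with siCop1. Ace, angiotensin-converting enzyme, was at 11.7, 10.2 and 12 CPM without Dexa and 58.2, 53.2 and 54.1 CPM with it in siCTRL and at 3.16, 3.51 and 3.77 CPM without Dexa and 33.5, 33.1 and 32.9 CPM with it in siCop1 cells. It rose by 2.29 in siCTRL and 3.25 in siCop1 cells (difference 0.96, adjusted p 4.67e-06). Its CPM were lower in siCop1 cells both without and with Dexa, so the larger log2 change is not a higher level with Dexa. Dkk2 fell by 0.94 in siCTRL, and in siCop1 cells, where it was at 70.4, 68.9 and 70.3 CPM without Dexa and 85.3, 76.3 and 72.8 CPM with it, it rose by 0.16 (adjusted p 0.0207; difference 1.11, adjusted p 1.93e-09). Grem1 fell by 1.71 and 1.09 (difference 0.62, adjusted p 8.34e-07), and Nptx1, a neuronal pentraxin, by 1.59 and 0.80 (difference 0.79). Tll1, a protease that processes procollagen, rose by 0.55 and 1.34 (difference 0.79).

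**Figure D5:**
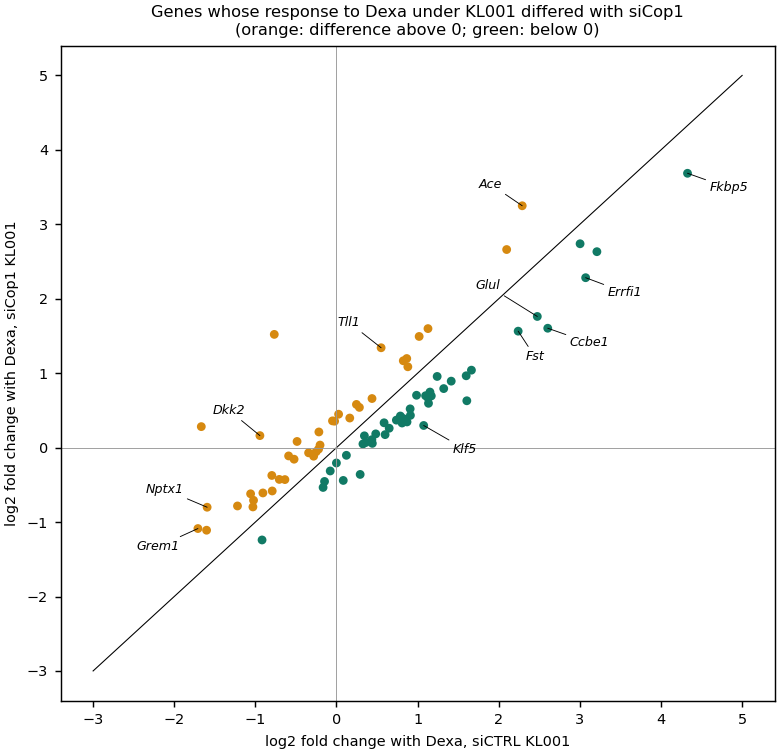
Log2 change with Dexa under KL001 in siCTRL cells (horizontal axis) and in siCop1 cells (vertical axis) for the 83 genes whose changes differed, with the line of equal change. Orange points changed more upward with siCop1, such as Ace (2.29 and 3.25), and green points less, such as Errfi1 (3.07 and 2.28).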

How the data were processed

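The series measured polyadenylated RNA of wild type mouse embryonic fibroblasts by stranded single-read sequencing, with 3 lanes pooled per library, per the labels' protocols. The authors deposited 1 table of raw read counts for 47480 genes in 24 libraries of 8 groups. The submitters' processing notes name bcl2fastq 1.8.4, STAR 2.4.5a, featureCounts of Subread 1.4.6-p3, Picard 1.126, DESeq2 and the mouse build GRCm38 (mm10), without roles. Of the strand setting and the annotation release, nothing is given in the sources used here. Reads of overlapping genes and of near-identical copies may therefore be shared between them.

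Groups were taken from the labels. Genes were tested where edgeR's filter kept them (minimum count 10, minimum total 15), which left 14772 of 28837 genes with a count. The model was fitted with edgeR 4.0.16 in R 4.3.3 (quasi-likelihood, robust, TMM scaling, 1 mean per group over all 24 libraries), with Benjamini-Hochberg adjustment over all genes tested and a threshold of 0.05. Differences of responses are interaction terms of the same fit. The common biological coefficient of variation was 3.706%. With 3 libraries per group, small changes of genes with few counts cannot be detected, and counting intervals are exact and cover counting error only. The scripts were tested on simulated data.

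Alternatives were RLE scaling, no filter, no robust fit, the replicate number as a block, only the groups compared, DESeq2 1.42.0, and leaving out each library. Leaving out replicate 2 of both KL001 groups was added after seeing the data. Named genes are list members by role with the largest called changes or defining their list, and, beyond the lists, the 10 genes with the largest change in each direction that averaged 1 CPM or more and did not overlap between groups. For differences of responses, up to 5 called genes of each sign were named, and further genes as stated. The members and lists were chosen with earlier results of these data known. Promoter windows and gene positions come from RefSeq for GRCm38.p6. Some genes are not reported here.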

Additional observations from a re-analysis of the deposited data

Results flagged for a closer look

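The response to Dexa under KL001 differed between siCop1 and siCTRL cells for 83 genes, by a test of the difference itself (the interaction term in edgeR's quasi-likelihood fit). The terms named by rule, each the siCop1 response minus the siCTRL response on the log2 scale, were 1.11 for Dkk2, 0.96 for Ace, 0.79 for Nptx1, 0.79 for Tll1 and 0.62 for Grem1. Those below 0 were -1.0 for Ccbe1, -0.79 for Errfi1, -0.78 for Klf5, -0.71 for Glul and -0.67 for Fst. Dkk2 fell in siCTRL cells and rose by 0.16 in siCop1 cells (adjusted p 0.0207 in the same fit), and in the other 9 genes both responses had the same sign.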

How the results depend on the processing

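The number of genes that changed with Dexa under KL001 was 3922 with RLE scaling, 3749 without a filter, 3958 without the robust fit, 3060 with only the groups compared and 3554 with DESeq2. It was 3396 to 3857 when single libraries were left out, and 3274 without replicate 2 of both groups. Of 203 genes followed, 185 passed and 171 of those kept call and direction under every alternative run. No direction of a gene called under both settings was reversed. Among counts of gene lists, 443 of 468 stayed within 1.5 times. The KL001 by Dexa difference gave 133 genes without a filter (95 higher, 38 lower), 2 with DESeq2 (both higher) and 1 without replicate 2 of both KL001 groups (lower). Leaving out single libraries gave 0 to 2 genes in all, 0 to 2 higher and 0 to 1 lower. The siCop1 by Dexa difference gave 156 genes without a filter (60 higher, 96 lower), 52 with only the groups compared (22 higher), and 43 to 93 with single libraries left out (15 to 51 higher, 28 to 61 lower). The causes were not tested. The siCop1 differences given as called for single genes kept their call under all alternatives run. With the replicate number as a block the 3 counts were 3902, 0 and 75. Same-numbered libraries correlated in their deviations at 0.279, 0.0756 and 0.117 over 9590 genes. Differently numbered ones ran from -0.222 to 0.104, the highest being replicate 2 without Dexa with replicate 3 with Dexa. These values do not settle whether same-numbered libraries are paired, and the main fit treats them as unpaired. Genes with few counts have wide intervals.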
